A study of Mus musculus with 30 samples.

Results

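The Hippo pathway reads cell shape, cell contact and the stiffness of the substrate. Its kinases keep the coactivators YAP and TAZ in the cytoplasm, and when the kinases are inactive YAP and TAZ enter the nucleus, where they have no DNA-binding domain of their own and act through the TEAD transcription factors. In endothelial cells (ECs) YAP and TAZ are known for their part in sprouting angiogenesis and, in the brain, in the growth of the vascular network. The 10 genes described here are the coactivators Yap1 and Wwtr1 (which encodes TAZ), the DNA-binding partners Tead1, Tead2, Tead3 and Tead4, and the target genes Ccn1, Ccn2, Ankrd1 and Amotl2. They were taken by name, 10 of 21820 protein-coding gene symbols, and all 10 were present in the quantification files. Ccn1 (also known as Cyr61) and Ccn2 (Ctgf) encode matricellular proteins that are secreted and bind integrins, Ankrd1 encodes an ankyrin repeat protein best known from stretched muscle, and Amotl2 encodes an angiomotin-like junction protein that binds YAP and is also part of a negative feedback on it.

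RNA was sequenced from 14 libraries in 4 groups, all from adult male mice. Acutely isolated brain ECs (n = 2) and GFP-negative brain cells (n = 2) were sorted from Tie2-GFP mice, in which GFP is driven by an endothelial promoter, and were not cultured. Per the study's methods, the data for acute ECs combine cerebrum and cerebellum, of which the latter came from an earlier study. The WT cultures (n = 6) were primary brain ECs grown for 8 days on collagen after puromycin selection, from 3 experiments of 2 wells each. WT experiment 1 (WT cultures 1 and 2) used C57BL/6J mice and isolation method A (papain digestion and trituration). WT experiments 2 (cultures 3 and 4) and 3 (cultures 5 and 6) used Ctnnb1flex3/+;Tie2-GFP mice that had received 4-hydroxytamoxifen as pups but carry no Cre, and isolation method B (Dounce homogenization, then collagenase and dispase). The study's text can be read as giving this drug to the C57BL/6J mice as well or only to the former. The stabilized cultures (n = 4) came from Ctnnb1flex3/+;Pdgfb-CreER;Tie2-GFP mice given the same drug, in which an endothelial Cre removes exon 3 of Ctnnb1 and so stabilizes beta-catenin. Stabilized cultures 1 and 2 were made by method A and cultures 3 and 4 by method B. The methods of WT cultures 5 and 6 follow the study's methods text, while a figure legend of the study assigns method A to every WT culture but 3 and 4. The strain in the labels of cultures 5 and 6 is the one that the methods text ties to method B. Brains of several mice were pooled for each culture experiment, and the replicates are wells, so p-values measure the spread between wells and experiments and not between animals. WT cultures 3 and 4 were read for 150 cycles in paired ends, the other 8 cultures for 36 cycles in paired ends, and the 4 sorted libraries for 75 cycles in single ends after cDNA amplification. Culture therefore cannot be told apart from sorting, amplification and read layout in any comparison with sorted cells.

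Summed estimated counts ran from 24284843 to 94686456 per library. The 6 endothelial markers Pecam1, Cdh5, Kdr, Tek, Cldn5 and Erg summed to 1662 to 1748 TPM (a transcript level per length, scaled to the same total in every library) in acute ECs, 698 to 1912 in WT cultures and 936 to 3261 in stabilized cultures, with each marker at 5 TPM or more in every library, against 4.44 to 17.0 in GFP-negative cells. The 5 pericyte markers summed to 248 to 358 TPM in acute ECs, close to the 239 to 473 of GFP-negative cells, and to 4.09 to 19.2 in cultures. The 5 erythrocyte markers summed to 5448 TPM in acute EC 1 and 41099 in acute EC 2. They summed to 1368 and 15185 in GFP-negative cells and at most 1.39 in cultures. The 4 smooth muscle markers Acta2, Tagln, Myh11 and Cnn1 summed to 214 to 233 TPM in acute ECs and 461 to 3068 in cultures, while Myh11, the most restricted of them, was at 19.7 to 25.0 TPM in acute ECs and 0.502 to 3.11 in cultures. Acta2, Tagln and Cnn1 were called higher in WT cultures than in acute ECs by the test that follows, as were several of the 10 genes. The part of these other cell types and programs in the results was not tested. Levels of different genes are compared only as TPM, which is per transcript length, and differences between groups come from edgeR's quasi-likelihood test on counts, in log2 units. A gene was called where its Benjamini-Hochberg adjusted p over all genes tested was below 0.05, the change was over 2-fold and every library of the higher group reached 5 TPM.

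The first question was how the pathway's genes changed when brain ECs were taken into culture. Ccn1, Ccn2 and Ankrd1 were higher in all 6 WT cultures than in both acute EC libraries, by 15.9-fold, 74.0-fold and at least 1990-fold. With wells summed per experiment these 3 were still called, at larger edgeR adjusted p of 0.00854, 0.00717 and 0.00298. In that fit 1274 of 14054 genes were called higher and 834 lower. None of the coactivator or Tead genes was called, and neither was Amotl2. Thus 3 of the 10 genes were called higher and 0 lower, where 13.5% of all 13784 genes tested were called higher and 10.2% lower. The median log2 difference of the 10 genes was 0.18, beside 0.10 over all genes tested. By list, 3 of the 4 target genes and 0 of the 6 coactivator and Tead genes were called.

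Ccn2 stood at 29.3 and 15.5 TPM in the acute EC libraries and at 950 TPM (lowest), 2767 (median) and 4510 (highest) in the 6 WT cultures, a mean of 22.4 ± 9.73 (SD, n = 2) against 2706 ± 1444 (SD, n = 6). The lowest culture was thus above both acute libraries. By mean TPM Ccn2 was the protein-coding gene ranked 13 in WT cultures and 3074 in acute ECs. The log2 difference was 6.21 (SE 0.92, edgeR adjusted p = 0.00102).

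Ccn1 stood at 27.6 and 66.3 TPM in acute ECs and at 783, 1230 and 1858 TPM (lowest, median, highest) in WT cultures, a mean of 46.9 ± 27.4 (SD, n = 2) against 1265 ± 442 (SD, n = 6). The groups did not overlap, and the gene moved from rank 1501 to rank 42. The log2 difference was 3.99 (SE 0.54, edgeR adjusted p = 0.000701). Together Ccn1 and Ccn2 took 0.006% to 0.008% of all TPM in acute ECs and 0.173% to 0.637% in WT cultures.

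Ankrd1 had 0 counts in both acute EC libraries and in both GFP-negative libraries, and was at 85.8, 104 and 273 TPM (lowest, median, highest) in WT cultures, with 3520 to 41121 counts per library. Because the acute libraries were at 0, only a lower bound of the fold can be given. Set against 3 counts in the shallower acute library, the lowest WT culture was at least 1990-fold higher, or at least 11.0 on the log2 scale, and its call had an edgeR adjusted p of 0.00073. Against GFP-negative cells the same bound was 1910-fold. Such floors cover counting error only.

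**Figure D1:**
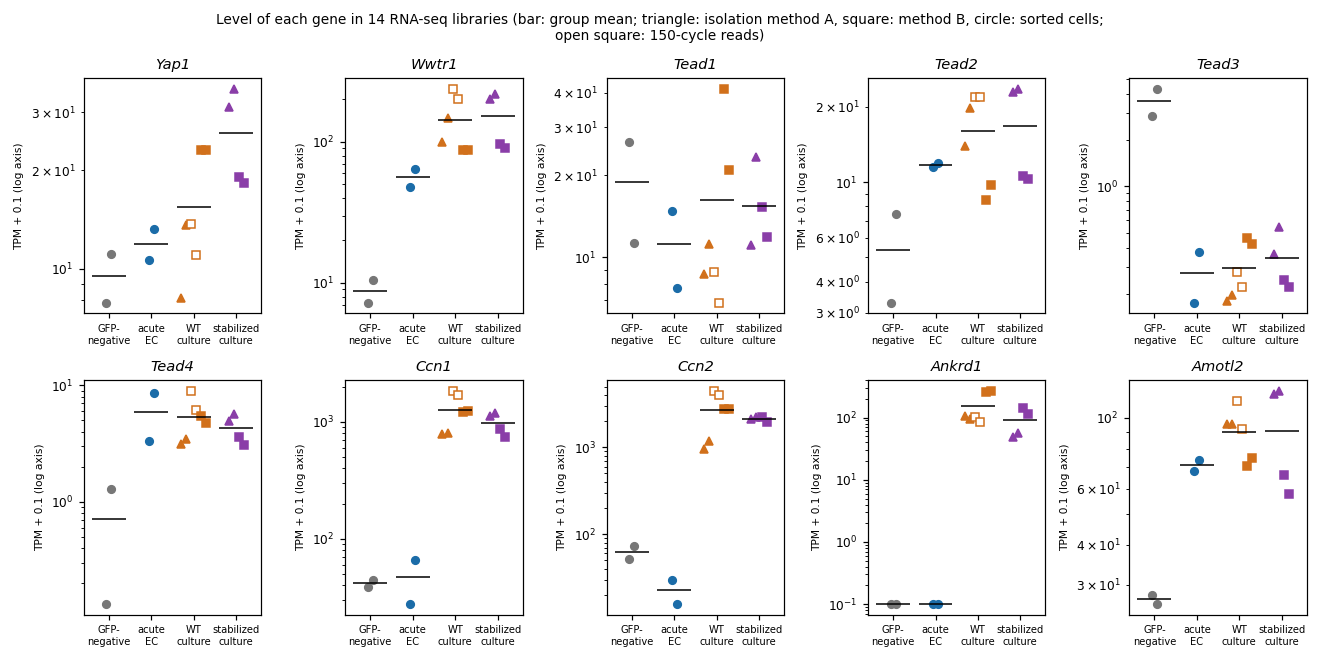
Level of each of the 10 genes in each of the 14 RNA-seq libraries, as TPM + 0.1 on a log axis, by group; bars are group means, triangles are cultures made by method A, squares by method B (open squares are the 150-cycle libraries) and circles are sorted cells. Ccn1, Ccn2 and Ankrd1 were higher in all 10 cultures than in both acute EC libraries, Ankrd1 was at 0 in the 4 sorted libraries, and Tead3 was above 1 TPM only in GFP-negative cells.

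Among the coactivators Wwtr1 was the more abundant in all ECs. It was at 47.9 and 64.5 TPM in acute ECs and at 86.9, 123 and 236 TPM (lowest, median, highest) in WT cultures, so that the groups did not overlap on this scale. On counts the direction was the opposite and the difference was small, at -0.21 (95% interval -0.87 to 0.45, edgeR adjusted p = 0.576). With the effective transcript length of each library as an offset it was 0.65 (adjusted p = 0.110). The direction of Wwtr1 therefore depends on how length is treated. In acute ECs salmon assigned 28.0% and 50.4% of the gene's TPM to transcript Wwtr1-201 and the rest to another transcript, whereas in cultures Wwtr1-201 took 98.1% to 99.6%.

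Yap1 was at 10.5 and 13.1 TPM in acute ECs and at 8.02, 13.6 and 22.9 TPM in WT cultures, and the groups overlapped. Its log2 difference was -0.77 (95% interval -2.20 to 0.65, edgeR adjusted p = 0.342), an interval that leaves room for a fall of over 4-fold. Wwtr1 made up 82.0% and 83.1% of the summed Yap1 and Wwtr1 TPM in acute ECs and 79.1% to 94.9% in WT cultures, against 47.9% and 48.5% in GFP-negative cells.

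The Tead genes were low, none above 41.2 TPM in any library of ECs. Their summed TPM overlapped between sorted and cultured ECs, at 29.3 and 28.2 TPM in acute ECs and 25.5 to 55.3 TPM in WT cultures. Tead1 was at 14.6 and 7.60 TPM in acute ECs and at 6.73, 9.89 and 41.2 TPM in WT cultures. Tead2 was at 11.4 and 11.8 TPM in acute ECs and at 8.36, 16.8 and 21.9 TPM in WT cultures. Tead4 was at 3.20 and 8.49 TPM in acute ECs and at 3.03, 5.02 and 8.93 TPM in WT cultures. All 3 overlapped between the groups. Tead3 was at 0.075 and 0.274 TPM in acute ECs and at most 0.364 TPM in WT cultures, on 6 to 66 counts per culture. Salmon assigned 70.5% of Tead1 TPM in acute EC 1 to the retained-intron transcript Tead1-214, and 41.1% in acute EC 2 to Tead1-209. In cultures these took at most 11.2% and 8.45%. The effective length of Tead2 was 884 and 796 bases in acute ECs and 1714 to 2472 in WT cultures. The Tead levels and their sum on TPM rest in part on these assignments.

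The log2 differences were 0.02 for Tead1 (95% interval -2.45 to 2.50), 0.05 for Tead2 (-0.83 to 0.93), 0.31 for Tead3 (-1.83 to 2.46) and -0.73 for Tead4 (-1.83 to 0.37). None passed the edgeR test, and the intervals of Tead1 and Tead3 are wide enough to hold changes of over 2-fold either way. These intervals count wells of the same experiment as independent. With wells summed per experiment, the intervals of Tead2 (-1.05 to 1.34) and of Wwtr1 (-1.30 to 1.05) held such changes as well. By name, Tead2 was the leading Tead in WT cultures 1 to 4, at 54.2% to 62.9% of the Tead sum. Tead1 led in WT cultures 5 and 6, at 74.5% and 58.7%.

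**Figure D2:**
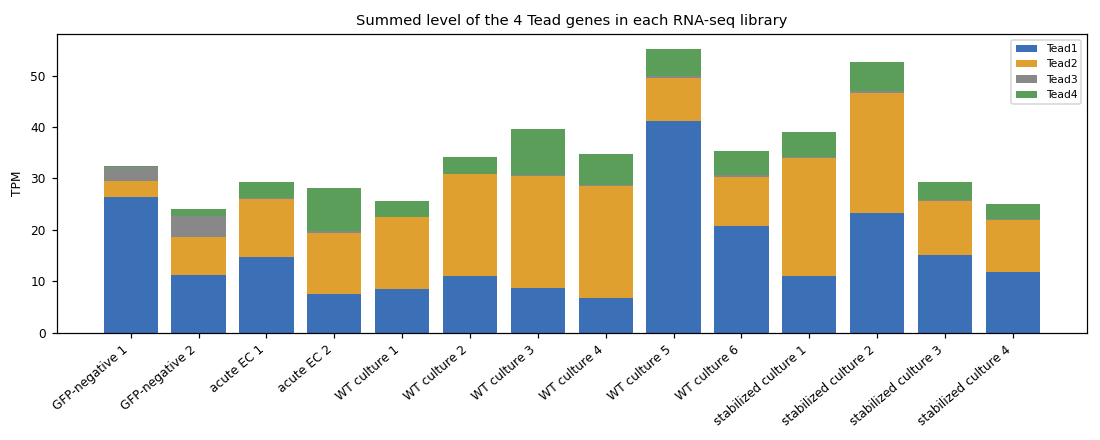
Summed TPM of Tead1, Tead2, Tead3 and Tead4 in each RNA-seq library, stacked by gene. The sum lay between 24.0 and 55.3 TPM in all 14 libraries, and Tead2 took the largest share in WT cultures 1 to 4 and Tead1 in WT cultures 5 and 6.

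Amotl2 was at 68.1 and 73.8 TPM in acute ECs and at 70.7, 93.5 and 113 TPM (lowest, median, highest) in WT cultures, and the groups overlapped. Its log2 difference on counts was 1.10 (SE 0.54, edgeR adjusted p = 0.127), and with the length offset it was -0.23 (adjusted p = 0.657). It was called in 36-cycle cultures only (1.45, adjusted p = 0.00418), in method A only (1.56, adjusted p = 0.00670) and in a fit of all 14 libraries (adjusted p = 0.0498). In acute ECs the full-length transcript Amotl2-201 took 3.86% and 5.25% of the gene's TPM and most of the rest lay on transcripts of 541 to 605 bases. In cultures Amotl2-201 took 71.5% to 87.1%, so the gene's counts and its TPM give different pictures.

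Stabilized cultures gave the same 3 calls against acute ECs, with Amotl2 in addition. Here 4 of the 10 genes were called higher and 0 lower, where 15.1% of 13888 genes were called higher and 11.0% lower. The comparison shares its acute libraries with the one above. Ccn2 was at 2103, 2220, 2222 and 1950 TPM, a mean of 2124 ± 129 (SD, n = 4), and its log2 difference was 6.07 (SE 0.73, edgeR adjusted p = 0.000882). Ccn1 was at 1115, 1205, 877 and 740 TPM, a mean of 984 ± 214 (SD, n = 4), with a log2 difference of 3.78 (SE 0.35, adjusted p = 0.000341). Ankrd1 was at 48.7, 57.1, 142 and 114 TPM, at least 1370-fold above the acute libraries.

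All 4 stabilized cultures were above both acute libraries for these 3 genes, as the WT cultures were. How large a share of all genes separated in this way was not counted. For Amotl2 the stabilized cultures did not separate. It was at 118, 121, 65.9 and 57.5 TPM, with cultures 3 and 4 below both acute libraries, and its log2 difference on counts was 1.13 (SE 0.17, adjusted p = 0.00181). With the length offset it was -0.31 (adjusted p = 0.244), which ends the call and turns the direction, and in a fit of all 14 libraries it did not pass (adjusted p = 0.0582).

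Wwtr1 was at 203, 219, 96.7 and 89.7 TPM in stabilized cultures and Yap1 at 30.9, 35.2, 18.9 and 18.1 TPM. All 4 values of each gene were above both acute libraries, and here too the share of all genes was not counted. Mitochondrial transcripts took 16.0% and 17.5% of TPM in acute ECs and 0.9% to 3.7% in cultures. With these left out of the TPM sum, the lowest stabilized culture was at 91.2 TPM for Wwtr1 and 18.5 for Yap1. The higher acute library was at 78.3 and 15.9. Neither gene was called on counts, at -0.16 for Wwtr1 (95% interval -0.62 to 0.29) and -0.16 for Yap1 (-0.83 to 0.52). With the length offset Wwtr1 was at 0.77 (adjusted p = 0.0180), below the 2-fold threshold. Of the Tead genes, none was called.

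**Figure D3:**
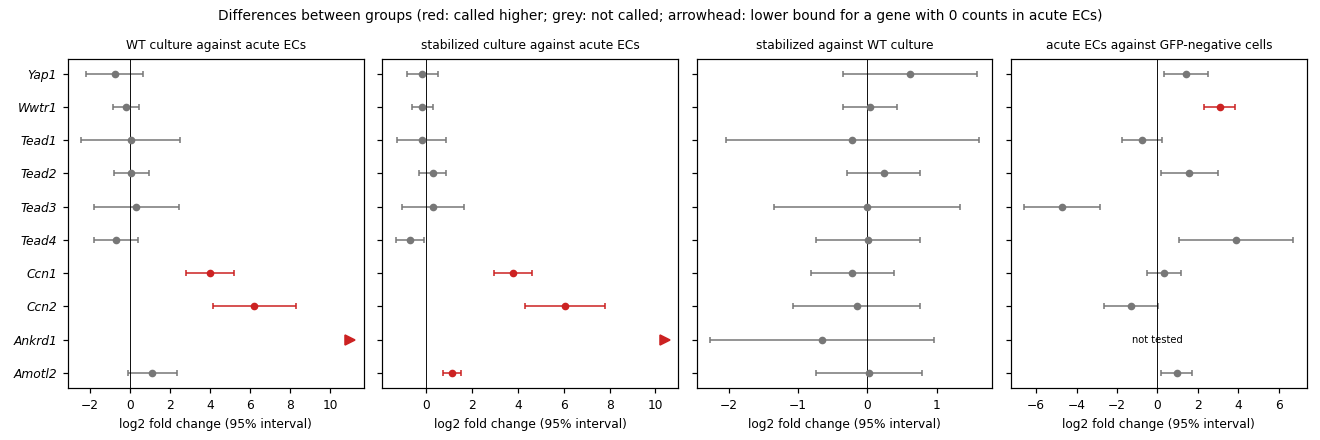
Log2 fold changes of the 10 genes in 4 comparisons with their 95% intervals from edgeR on counts, called genes in red; arrowheads mark the lower bound for Ankrd1, which had 0 counts in acute ECs. Ccn1, Ccn2 and Ankrd1 lay far to the right in both comparisons with acute ECs, the 6 coactivator and Tead genes lay around 0 there, and no gene was called between the culture genotypes.

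The second question was how far the genes of the pathway were endothelial in the uncultured brain. Wwtr1 was at 7.14 and 10.3 TPM in GFP-negative cells and at 47.9 and 64.5 TPM in acute ECs. It was 8.48-fold higher in ECs (log2 difference 3.08, SE 0.32, edgeR adjusted p = 0.00232), and was the 1 gene of 9 tested that was called higher, with 0 called lower. Over all 15102 genes 8.30% were called higher and 7.56% lower, or 1254 and 1142 genes, which became 930 and 1419 with library size scaling and 649 and 894 with the length offset.

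Tead3 went the other way, at 2.77 and 4.20 TPM in GFP-negative cells against 0.075 and 0.274 TPM in ECs (log2 difference -4.70, SE 0.78, adjusted p = 0.00866), but its higher group did not reach 5 TPM. Tead4 was at 0.032 and 1.19 TPM in GFP-negative cells against 3.20 and 8.49 TPM in ECs (3.90, SE 1.17, adjusted p = 0.0497), and 1 EC library was below 5 TPM. For Tead3 the groups lay further apart than the 2 libraries of either group. For Tead4 they did not, since its 2 GFP-negative libraries differed by a larger ratio than the group means.

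The other genes did not pass the test. Yap1 was at 7.78 and 11.0 TPM in GFP-negative cells and its log2 difference was 1.41 (95% interval 0.31 to 2.52, adjusted p = 0.0613). Tead2 was at 3.19 and 7.35 TPM (1.59, 0.18 to 3.0, adjusted p = 0.0896) and Amotl2 at 27.8 and 26 TPM (0.95, 0.20 to 1.70, adjusted p = 0.0630). Tead1 was at 26.4 and 11.2 TPM, and overlapped with ECs. Ccn1 was at 39.0 and 44.2 TPM, between the 2 EC libraries, and Ccn2 at 52.2 and 73.3 TPM, above both EC libraries (-1.31, -2.64 to 0.02, adjusted p = 0.126). Without acute EC 1 the Ccn2 difference passed (-2.44, adjusted p = 0.0116), and without acute EC 2 that of Yap1 did (1.84, adjusted p = 0.0209). Neither CCN gene was called as endothelial in the sorted cells.

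The 3 WT experiments differed among themselves. In an edgeR test over the 3 experiments all 10 genes had an adjusted p below 0.05, and 5 of them were called (Yap1, Tead1, Ccn2, Ankrd1 and Amotl2). The background was as wide, with 89.8% of 13050 genes below 0.05 and 35.6% called, since wells of the same experiment were much closer to each other than to wells of another. The counts are therefore a description of experiments. The libraries of experiment 2 were also prepared and sequenced at another facility, which cannot be told apart from the experiment.

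Tead1 spread the most, with a log2 range of 3.82 between the highest and the lowest experiment (adjusted p = 8.11e-07). It was at 8.57 and 11.1 TPM in WT experiment 1, 8.70 and 6.73 in experiment 2, and 41.2 and 20.8 in experiment 3. The 2 wells of experiment 3 themselves differed. Yap1 was also highest in experiment 3, with 8.02 and 13.5 TPM, then 13.6 and 10.9, then 22.9 and 22.9 (log2 range 2.06, adjusted p = 2.76e-07).

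Wwtr1 and Tead2 were lowest in experiment 3. Wwtr1 was at 99.3 and 147 TPM, 236 and 201, and 86.9 and 88.0 in experiments 1 to 3, and Tead2 was at 13.8 and 19.8, 21.9 and 21.9, and 8.36 and 9.61. The ratio of Wwtr1 to Yap1 was accordingly 12.4 and 10.9 in experiment 1, 17.3 and 18.5 in experiment 2, and 3.79 and 3.85 in experiment 3.

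Among the targets, Ankrd1 was at 106 and 95.4 TPM, 102 and 85.8, and 257 and 273 (log2 range 2.78, adjusted p = 6.32e-08). Ccn2 was at 950 and 1195, 4510 and 4046, and 2774 and 2759 (1.60, adjusted p = 2.69e-07), and Ccn1 at 783 and 802, 1858 and 1687, and 1221 and 1239 (0.83, adjusted p = 5.02e-05, below the 2-fold threshold). The highest experiment depended on the scale for Ccn1 and Ccn2. On TPM they were highest in experiment 2, and on CPM (counts scaled to the same library size), the scale of these ranges, in experiment 3, at 2704 and 2648 against 2144 and 2065 in experiment 2 for Ccn1 and at 6785 and 6577 against 6661 and 6267 for Ccn2. Ankrd1 was highest in experiment 3 on both. Amotl2 was at 95.2 and 95.5, 113 and 91.8, and 70.7 and 74.5 TPM. Its log2 range of 1.58 on counts was 0.96 with the length offset, under the 2-fold threshold.

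The smooth muscle markers moved with the isolation method. They summed to 501 to 561 TPM in WT experiment 1 and 461 to 557 in stabilized cultures 1 and 2, all method A, and to 2023 to 3068 in the 6 cultures of method B. Ccn2 was also lower in method A than in method B, in WT cultures on both scales and in stabilized cultures on CPM, at 3332 and 3200 in method A and 5652 and 5194 in method B. On TPM the stabilized cultures of the 2 methods overlapped. The part of these markers in the levels of Ccn2 was not tested.

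The third question was whether stabilized beta-catenin altered the pathway in culture. Over all 10 cultures no gene of the 10 was called, with 0 of 12958 genes called in either direction (0.00% higher and 0.00% lower) by edgeR, which gave 1344 genes at an unadjusted p under 0.05. DESeq2 called 14 genes higher and 3 lower over all genes, and none of the 10 genes was called by it. The intervals show how large a difference could have been missed if all 10 cultures were independent. Wells of the same experiment are not, so these intervals understate it. They were narrow for Wwtr1 (0.04, 95% interval -0.35 to 0.43) and Tead2 (0.24, -0.29 to 0.77). They were wide for Tead1 (-0.21, -2.04 to 1.61) and Ankrd1 (-0.65, -2.27 to 0.97), the genes with the largest spread among experiments.

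Within 36-cycle cultures and with the isolation method as a covariate, Ankrd1 was lower in stabilized cultures. Within method A it was at 224 and 194 CPM in WT cultures and 73.5 and 79.6 in stabilized cultures. Within method B it was at 604 and 627 CPM in WT cultures and 341 and 295 in stabilized cultures. All 4 stabilized wells were below the WT wells of their method, but those of method B were above the WT wells of method A. The log2 difference was -1.30 (SE 0.17, edgeR adjusted p = 0.00615), and Ankrd1 was the 1 gene of the 10 called, where 0.0774% of 12921 genes were called lower.

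Within method A alone it was -1.63 (SE 0.16, adjusted p = 0.000819), where 0.918% of 12848 genes were called lower. Within method B alone it was -0.95 (SE 0.08, adjusted p = 0.00112), under the 2-fold threshold. The WT cultures of method A came from C57BL/6J mice, without the Ctnnb1flex3 allele, while those of method B carried this allele. Whether both kinds of WT mice had received the drug is not clear from the study's text. Each of these fits rests on 1 culture experiment per genotype and method, so that a difference between genotypes and a difference between experiments cannot be told apart. The 150-cycle WT cultures 3 and 4, which were left out here, were at 121 and 107 CPM, below stabilized cultures of the same method, and with all 10 cultures the fit gave no call.

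Tead1 was the 1 gene called lower within method B alone, at 237 and 111 CPM in WT cultures against 85.1 and 76.4 in stabilized cultures (log2 difference -1.11, SE 0.33, adjusted p = 0.0445), where 0.280% of 12835 genes were called lower. Within method A it was at 30.2 and 38.3 CPM in WT cultures against 31.6 and 72.0 in stabilized cultures (0.45, adjusted p = 0.308). Yap1 differed within method A, at 32.0 and 52.3 CPM in WT cultures and 86.5 and 87.8 in stabilized cultures (0.91, SE 0.14, adjusted p = 0.00227, under the 2-fold threshold). Within method B the same gene was at 94.5 and 94.8 CPM against 84.3 and 84.5 (-0.17, adjusted p = 0.0399).

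Whether the genotypes differed by the same amount in both methods was tested with an interaction term. It passed at an adjusted p below 0.05 for 8 of the 10 genes, where 49.6% of 13356 genes did. Yap1 (-1.05, SE 0.16, adjusted p = 0.000988) and Ccn2 (-0.67, SE 0.10, adjusted p = 0.000803) had the smallest p-values, with the difference between genotypes lower in method B. For Ankrd1 the term was 0.69 (SE 0.20, adjusted p = 0.0203), with a smaller fall in method B, and it did not pass without WT culture 5 or 6 or stabilized culture 1 or 3 (adjusted p = 0.0561 to 0.0999). Wwtr1 (0.23, adjusted p = 0.0544) and Amotl2 (0.39, adjusted p = 0.0578) did not pass. With the length offset 5 of the 10 passed (Yap1, Tead2, Tead3, Ccn2 and Ankrd1), where 5285 of 13356 genes did.

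**Figure D4:**
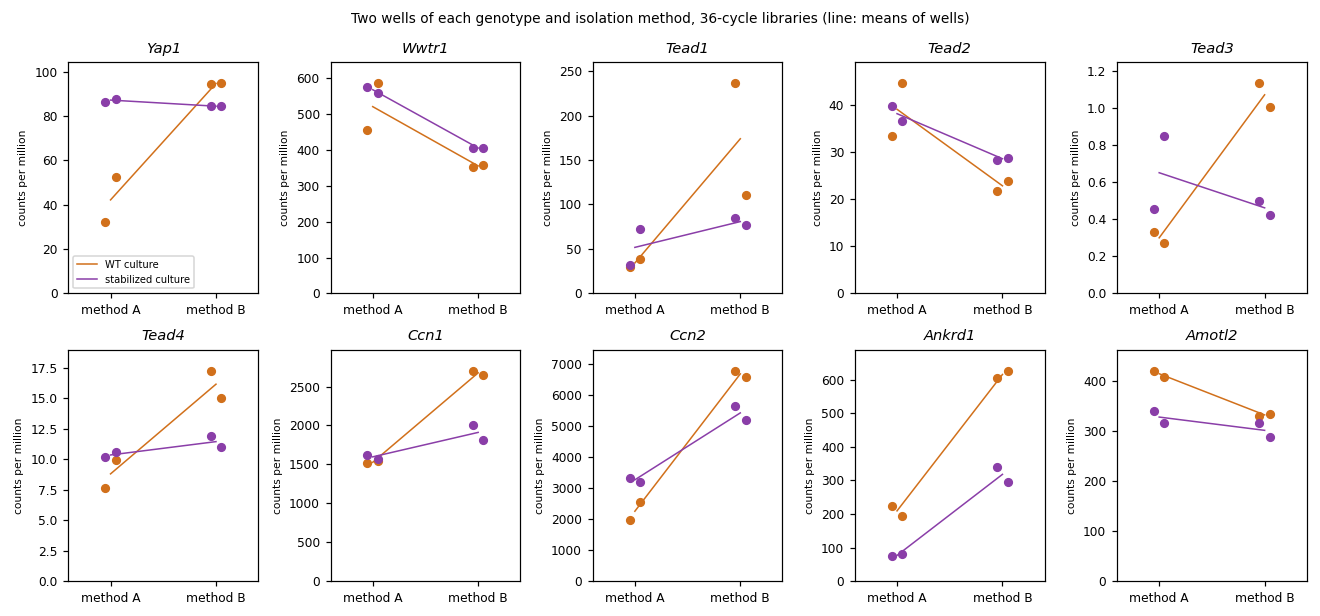
CPM of the 10 genes in the 36-cycle cultures, by isolation method on the x axis and genotype in color; points are wells and lines join the means of 2 wells. Ankrd1 was lower in stabilized than in WT wells of both methods, and Yap1 was higher in stabilized wells of method A and slightly lower in those of method B.

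The other genes of the pathway were followed by 3 lists. Of 19 genes for Hippo kinases and scaffolds, all tested, 1 was called higher and 1 lower in WT cultures against acute ECs, with a median log2 difference of -0.29. Of all genes tested 13.5% were called higher and 10.2% lower, so both counts lie under the background. Rassf1, a scaffold that binds the Hippo kinases, rose from a mean of 10.5 to 71.9 TPM (log2 difference 2.40, SE 0.43, edgeR adjusted p = 0.00252). Nf2, which encodes Merlin and recruits the kinases to the membrane, fell from 60.0 to 20.4 TPM (-1.46, SE 0.28, adjusted p = 0.00338). Lats1 and Lats2, the kinases that phosphorylate YAP and TAZ, were not called, at -0.29 (95% interval -1.72 to 1.13) and 0.18 (-0.56 to 0.92).

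Of 13 genes for cofactors and binding partners, 11 were tested, 2 were called higher and 1 lower, shares near that background, and their median was 0.10. Amot, the founding angiomotin, which holds YAP in the cytoplasm and at junctions, fell from 62.9 to 4.10 TPM (-3.71, SE 0.58, adjusted p = 0.00125). Ajuba and Wtip, LIM proteins that bind and restrain the LATS kinases, rose from 1.97 to 42.7 TPM (3.41, SE 0.40, adjusted p = 0.000389) and from 6.52 to 27.0 TPM (1.43, SE 0.33, adjusted p = 0.00782). Wtip did not pass without acute EC 2 (adjusted p = 0.0537). Vgll4, which competes with YAP for TEAD, was not called (-0.61, 95% interval -1.75 to 0.53).

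Of 18 other genes known as YAP or TAZ targets, all tested, 5 were called higher and 1 lower, and their median was 1.87 beside 0.10 over all genes. Igfbp3, a secreted IGF-binding protein, rose from 17.1 to 788 TPM (4.63, SE 1.16, adjusted p = 0.0111) and Crim1, a transmembrane protein that binds BMPs, from 77.0 to 410 TPM (2.80, SE 0.66, adjusted p = 0.00869). Axl, a receptor tyrosine kinase, rose from 5.33 to 51.5 TPM (2.53, SE 0.66, adjusted p = 0.0134) and Gadd45a, a stress-response gene, from 5.75 to 66.5 TPM (2.93, SE 0.47, adjusted p = 0.00140). Crim1 and Axl did not pass without acute EC 1 (adjusted p = 0.0590 and 0.0764) or without acute EC 2 (0.0541 and 0.0864), nor did Igfbp3 without acute EC 2 (0.0698). F3, which encodes tissue factor, rose from 0.067 to 56.5 TPM (adjusted p = 0.00694). Foxf2, a forkhead factor, was called lower on counts (-1.48, SE 0.26, adjusted p = 0.00220) with mean TPM of 36.5 and 32.4.

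In stabilized cultures against acute ECs the same lists gave 1 and 1 of 19, 1 and 1 of 11, and 8 and 1 of 18 genes called higher and lower, where 15.1% and 11.0% of all genes were. Between stabilized and WT cultures no gene of the 3 lists was called. Between acute ECs and GFP-negative cells, 7 of 19 Hippo genes were called higher in ECs (Sav1, Lats2, Mob1a, Nf2, Wwc2, Ptpn14 and Fat4) and 0 lower, and of 11 cofactors 3 were called higher and 2 lower, with Amot higher by 3.29 (SE 0.37, adjusted p = 0.00280). Of the other targets 4 of 18 were called higher and 2 lower. Over all genes 8.30% were called higher and 7.56% lower. Amot and Nf2 were thus called higher in acute ECs both against GFP-negative cells and against WT cultures, 2 comparisons that share the acute libraries. Lats2 and Ptpn14 stand on both the Hippo and the target list, since they are also targets.

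Open chromatin was examined by the ATAC-seq peaks of 2 acute EC, 6 WT culture and 2 stabilized culture libraries, which hold 31844 to 98840 peaks each. WT cultures 1 and 2 of this assay were made by method A and the other cultures by method B. A region, the union of overlapping peaks, was counted near a gene if it lay in the gene body or within 50 kb of its start. It was called gained if all 6 WT cultures and neither acute library had a peak there, lost in the opposite case, and kept if all 8 had one. Of the 180 regions near the 10 genes 14 were gained (7.78%), where 7.83% of 102300 regions near all protein-coding genes were. A further 2 were lost (1.11%, background 2.61%) and 25 kept (13.9%, background 15.2%). The shares near the 10 genes were close to or under the background, so the neighborhood as a whole did not stand out. Where a peak had to cover at least 0.5 of the region, 10 were gained, 3 lost and 9 kept, with 4583, 3160 and 6873 over all genes. WT culture 2, with 33152 peaks, limits the number of gained regions, which was 27 of 180 without it and 16056 of 102300 over all genes.

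The gained regions lay at Wwtr1 (4), Ccn2 (3), Tead1 (2), Amotl2 (2), Tead4 (1), Ccn1 (1) and Ankrd1 (1), and all 14 were also open in both stabilized libraries. The lost regions lay in an intron of Yap1 69.4 kb from its start and 39.9 kb downstream of the start of Amotl2. Regions over the annotated starts of Yap1, Wwtr1, Tead1, Tead4, Ccn1 and Ccn2 were kept. Those over the starts of Tead2 and Tead3 had a peak in both acute libraries but not in every WT culture. The kept region nearest the annotated start of Amotl2 began past it. That kept region covered the 250 bases upstream of the RefSeq start of the gene, which lies further in. The region over the start of Ccn2 had a fold enrichment of 10.0 and 9.22 in acute ECs and 5.17 to 8.39 in cultures, and that of Ccn1 8.03 and 7.50 against 3.65 to 4.58. Both starts were thus open in acute ECs, where both transcripts were present at lower levels than in cultures. Fold enrichment depends on the depth of each library, which the peak files do not give, and its small differences are not read here.

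Of the starts, only that of Ankrd1 lay in a gained region. The region chr19:36119668-36120351 (mm10, the build named for the deposited files) had no peak in either acute library and a fold enrichment of 8.39 to 16.0 in WT cultures and 15.2 and 14.8 in stabilized cultures. It contains 2 copies of the TEAD motif GGAATG, at 210 and 123 bases upstream of the RefSeq start, and no AP-1 motif TGANTCA in the 300 bases around its summit. The 2 copies are shown because they lie in the 1 gained region that covers the start of a gene, with the motif in capitals (RefSeq sequence, GRCm38.p6, minus strand, chr19:36120037-36120066 and chr19:36119950-36119979, within 250 bases upstream of the start and, in part, within a UTR of another transcript of the gene).
Ankrd1 upstream copy: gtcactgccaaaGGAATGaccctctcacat
Ankrd1 downstream copy: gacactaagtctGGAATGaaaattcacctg

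The promoter of Ccn1 (250 bases upstream of its start, chr3:145649986-145650235, minus strand, GRCm38.p6) is shown as the contrasting case, a start that was open in all libraries while the gene rose. Its 1 TEAD motif, in capitals as CATTCC, the other strand of GGAATG, lies 103 bases upstream.
Ccn1 promoter: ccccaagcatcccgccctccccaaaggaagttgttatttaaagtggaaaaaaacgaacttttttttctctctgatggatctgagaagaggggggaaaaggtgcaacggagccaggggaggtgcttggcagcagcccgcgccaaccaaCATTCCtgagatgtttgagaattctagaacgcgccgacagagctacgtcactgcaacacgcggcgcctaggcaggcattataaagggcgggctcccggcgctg

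RefSeq promoters were in hand for 7 of the 10 genes, in 10 windows of which some overlap. Of these 8 held GGAATG or CATTCC and 0 held TGANTCA, where 12.6% and 6.75% of 32851 promoters of all genes did. The 8 windows belong to Yap1, Wwtr1 (2 overlapping), Ccn1, Amotl2, Tead3 (2) and Ankrd1, and the window of Tead2 and a further window of Tead3 held neither. The genes were chosen as known members and targets of the pathway, so the share is a description.

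Outside the starts, the gained regions with the highest fold enrichment in any 1 library were upstream of Ccn2 and downstream of Ccn1. The region 14.2 kb upstream of Ccn2 (chr10:24580977-24581726) had no peak in acute ECs and a fold enrichment of 9.87, 6.13, 17.3, 18.0, 24.1 and 25.8 in WT cultures 1 to 6, and of 17.3 and 16.7 in stabilized cultures. The region 16.9 kb downstream of the start of Ccn1 (chr3:145632664-145633479) was at 11.7, 9.05, 19.4, 20.9, 20.9 and 22.1 in WT cultures and 18.5 and 16.3 in stabilized cultures. In both, the libraries of method A were the lowest. These libraries also held fewer peaks in all, at 50450 and 33152 against 84560 to 98840 for WT cultures of method B. A gained intron region of Tead1, a gene that was not called, came close to both. It lay 144.6 kb from the start, at 15.1, 13.0, 14.1, 13.7, 20.0 and 21.7 in WT cultures 1 to 6 and 16.7 and 18.2 in stabilized cultures.

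**Figure D5:**
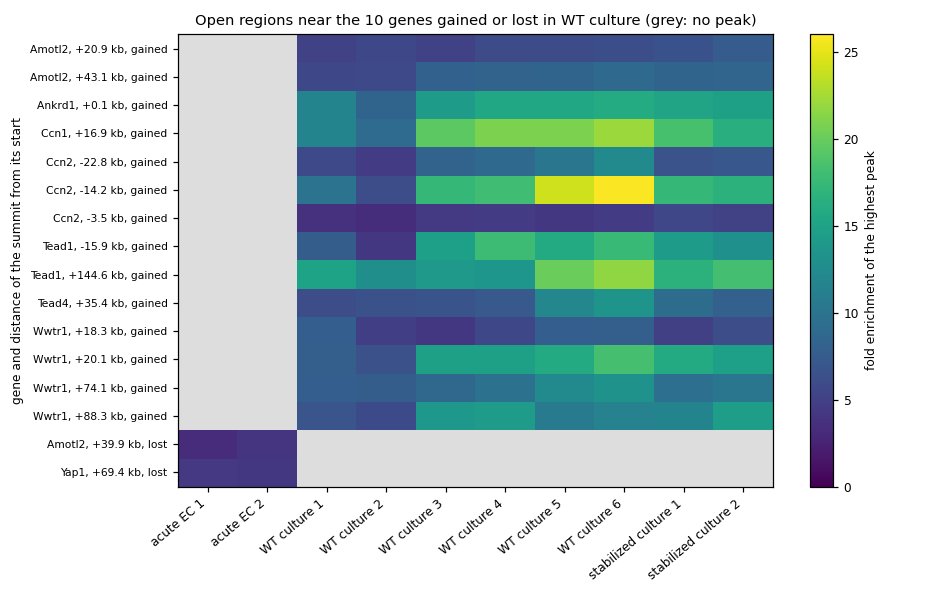
Fold enrichment of the highest ATAC-seq peak in the 14 gained and 2 lost regions near the 10 genes, by library, with regions named by gene and distance of the summit from its start; grey means no peak. All 14 gained regions had a peak in the 6 WT and 2 stabilized cultures and none in acute ECs, with the highest value, 25.8, in the region 14.2 kb upstream of Ccn2.

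In 300 bases around the summit, 6 of the 14 gained regions held a TEAD motif, 11 an AP-1 motif and 4 held both. The AP-1 motif, for FOS and JUN factors, was searched as TGANTCA with any base at N. Over all regions genome-wide 22% held the TEAD motif, 27.6% the AP-1 motif and 6.51% both, and over all 10207 gained regions 28.3%, 52.6% and 14.1% did. Kept regions were at 14.3% and 12.8%, and lost regions at 16.5% and 5.88%. Both motifs were counted on both strands. Their ends can share 2 letters (TG or CA), and in the gained regions that held both they did not.

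The 4 gained regions with both motifs are shown, since each holds the 2 motifs around the same summit. Capitals mark the motifs (GGAATG or CATTCC for TEAD and TGACTCA or TGAGTCA for AP-1, GRCm38.p6, each region in the direction of its gene). The motifs lie 8 bases apart near Ccn1 (chr3:145632891-145633190, minus strand), 44 near Ccn2 (chr10:24581097-24581396, plus strand), and 94 and 88 near Amotl2 (chr9:102737434-102737733 and chr9:102759652-102759951, plus strand). The Amotl2 regions lie 20.9 and 43.1 kb downstream of its start.
Ccn1 region: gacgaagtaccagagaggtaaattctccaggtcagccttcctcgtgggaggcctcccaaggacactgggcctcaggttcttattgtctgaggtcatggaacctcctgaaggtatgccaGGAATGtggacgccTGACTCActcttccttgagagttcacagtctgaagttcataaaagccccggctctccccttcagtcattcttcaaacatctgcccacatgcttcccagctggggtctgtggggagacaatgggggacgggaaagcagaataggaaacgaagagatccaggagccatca
Ccn2 region: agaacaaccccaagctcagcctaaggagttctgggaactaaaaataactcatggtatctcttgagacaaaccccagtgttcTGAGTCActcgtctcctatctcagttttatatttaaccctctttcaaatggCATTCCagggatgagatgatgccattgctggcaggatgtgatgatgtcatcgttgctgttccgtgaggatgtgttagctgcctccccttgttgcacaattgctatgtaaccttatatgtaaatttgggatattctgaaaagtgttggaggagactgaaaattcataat
Amotl2 near region: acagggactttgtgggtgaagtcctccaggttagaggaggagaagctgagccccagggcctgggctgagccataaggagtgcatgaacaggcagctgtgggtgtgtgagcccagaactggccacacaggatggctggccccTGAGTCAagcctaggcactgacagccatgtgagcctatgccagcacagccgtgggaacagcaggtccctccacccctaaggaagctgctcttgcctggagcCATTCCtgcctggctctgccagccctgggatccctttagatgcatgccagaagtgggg
Amotl2 far region: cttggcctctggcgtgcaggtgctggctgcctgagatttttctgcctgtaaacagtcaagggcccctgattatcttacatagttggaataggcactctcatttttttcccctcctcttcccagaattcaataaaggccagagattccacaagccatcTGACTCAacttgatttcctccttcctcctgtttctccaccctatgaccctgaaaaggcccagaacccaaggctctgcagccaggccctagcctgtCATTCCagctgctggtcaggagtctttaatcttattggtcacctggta

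The 4 gained regions at Wwtr1, in the gene body 18.3, 20.1, 74.1 and 88.3 kb from its start, each held the AP-1 motif and none the TEAD motif. At Tead1 the region 15.9 kb upstream held a TEAD motif and the intronic region 144.6 kb from the start an AP-1 motif, and the intronic region of Tead4 at 35.4 kb held 2 AP-1 motifs. The coactivator and Tead genes were not called between cultures and acute ECs, so that a gained region near a gene did not go along with a called change in its transcript there.

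The genes with the most similar profile over the 14 libraries were found by Pearson's r of log2(TPM + 1), over 8747 or 8748 genes of mean TPM of 5 or more. The 14 points fall into sorted and cultured libraries, so that r mostly reflects the contrast between them for the genes that changed. Ccn1 was most like Tnfrsf12a (r = 0.994), the receptor for TWEAK, and Rpl41 (0.994), and Ccn2 most like Egln3 (0.995) and S100a6 (0.994). Ankrd1 was most like Pbp2 (0.986) and Crct1 (0.984), and Amotl2 most like Osbpl9 (0.976) and Arpc1b (0.971), a subunit of the actin-nucleating ARP2/3 complex. Wwtr1 was most like Tie1 (0.994), an endothelial receptor, and Plekha8 (0.993), and Yap1 most like Supt16 (0.977) and Eef2 (0.969). Among the Tead genes Tead1 had the least similar partners, Lnpep (0.760) and Phldb1 (0.726). Tead2 was most like Rcn1 (0.981) and Rab5b (0.975), Tead3 most like Acsbg1 (0.989), a glial lipid enzyme, and H2-Aa (0.983), and Tead4 most like Agfg1 (0.965) and Pwwp2b (0.953).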

How the data were processed

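RNA was measured in 14 libraries and open chromatin in 10. The authors quantified 140198 GENCODE transcripts with Salmon 0.14.0, and deposited estimated counts, TPM values and effective lengths per transcript. For ATAC-seq the authors deposited MACS2 2.1.2 peaks per library on mm10, with a score, a fold enrichment ratio over the local background, and -log10 of the p-value and q-value. Samples from cerebrum had no file used here.

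The 10 genes and the gene lists were chosen with earlier results of these data known. All 10 are named, as are pathway genes called in WT cultures (at most 5 per list and direction), Lats1, Lats2, Nf2, Amot, Vgll4 and the 2 most similar genes of each member (log2 of TPM plus a pseudocount of 1).

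Here, counts were summed per gene, rounded and compared over all protein-coding genes that passed filterByExpr by edgeR's quasi-likelihood test (version 4.0.16, TMM scaling, run in R 4.3.3) in place of the study's EBSeq, with the study's thresholds of an adjusted p under 0.05, 2-fold and 5 TPM. Peaks were kept at a fold enrichment over 2 and -log10 q over 2, and joined where they overlapped. Alternatives were DESeq2 1.42.0, other scalings and filters, effective length offsets, subsets of cultures, the replicate block and leaving out each library. The fits were tested on simulated data. Promoters are RefSeq windows of GRCm38.p6.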

Additional observations from a re-analysis of the deposited data

Results flagged for a closer look

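For 8 of the 10 genes the difference between stabilized and WT cultures itself differed between isolation methods, by edgeR's interaction term over the 8 cultures of 36 cycles. The values are log2 differences, method B minus method A. They were -1.05 for Yap1, -1.53 for Tead1, -2.16 for Tead3, -0.56 for Tead4, -0.37 for Ccn1 and -0.67 for Ccn2, in which the stabilized cultures stood relatively lower in method B. They were 0.53 for Tead2 and 0.69 for Ankrd1, in which the stabilized cultures stood relatively higher in method B. Of all 13356 genes tested 49.6% passed the same test, and the count of the 10 genes is to be read against that. Tead3 rests on 8 to 66 counts per library in this fit. Leaving out single libraries ended the pass of Tead1 (-2.02 to -0.82) and Ccn1 (-0.49 to -0.25) in 6 of 8 cases each and that of Ankrd1 (0.43 to 0.92) in 4 of 8, and that of Tead3 without WT culture 2 (-1.86, adjusted p = 0.0552). Each combination of genotype and method is 1 culture experiment, so that the method, the experiment and, in method A, the strain of the WT mice cannot be told apart. In 20 sets of values (each gene in the 6 WT and in the 4 stabilized cultures), Dixon's criterion picked out 0 single libraries, where chance picks about 1 in 20.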

How the results depend on the processing

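Leaving out each library in turn kept 3 called genes in WT cultures against acute ECs, 4 to 5 in stabilized cultures against acute ECs, 0 between the culture genotypes and 5 to 6 among WT experiments. The count went from 1 to 2 in acute ECs against GFP-negative cells (2 without either acute EC library), 5 to 8 for the interaction (5 without WT culture 5), 14 to 27 for gained regions (27 without WT culture 2) and 2 to 5 for lost regions (5 without acute EC 2). Where 1 library was left in a group, it was assumed to vary like the others. Ccn1 and Ccn2 kept their calls against acute ECs, at 3.69 to 4.32 and 5.6 to 7.2 in WT cultures and 3.49 to 4.16 and 5.5 to 7.07 in stabilized cultures. In acute ECs against GFP-negative cells, 3 genes were called by DESeq2 (Yap1, Wwtr1 and Tead2, all higher), 3 with library size scaling (Wwtr1 higher, Tead1 and Ccn2 lower), 3 without the TPM minimum (Wwtr1 and Tead4 higher, Tead3 lower) and 2 with all 14 libraries in one fit (Wwtr1 and Tead2). Over all genes DESeq2 called 1476 higher and 1391 lower of 17367, and library size scaling 930 and 1419 of 15102. Without the TPM minimum 1499 and 2980 of 15102 were called, and in one fit 1456 and 1283 of 15760. With method A only, 5 genes were called in WT cultures against acute ECs and 1 between the genotypes, where 1 was also called with the method as a covariate and 1 in 36-cycle cultures of method B. Over all genes the 2 fits of method A called 2035 higher and 1775 lower of 13401, and 692 and 118 of 12848. The fit with the covariate called 66 and 10 of 12921, and that of method B 138 and 36 of 12835. The interaction passed for 5 genes with the length offset, where 5285 of 13356 genes did. A window of 10 kb left 8 gained and 1 lost region, and a fold enrichment over 4 left 4 lost regions. Peaks that cover at least 0.5 of the region left 9 kept regions of 25.

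With the replicate block, 5 genes were called in WT cultures against acute ECs, where 1867 of 13784 genes were called higher and 1769 lower. Between the genotypes the block gave 149 of 12958 genes that rose and 24 that fell. Its log2 differences were of the other sign for Tead1 (-1.10), Tead3 (-0.47) and Vgll4 (0.18) in WT cultures against acute ECs and, between the genotypes, for Wwtr1 (-0.09), Tead1 (1.58), Tead3 (1.21), Ccn1 (0.09), Ccn2 (0.27) and Ankrd1 (0.15). Deviations of samples with the same number were correlated over 13185 genes. They gave -0.04 and 0.04 between WT cultures and acute ECs, and -0.04 and 0.02 between stabilized cultures and acute ECs. Between the genotypes they gave 0.55, 0.57, 0.07 and 0.14, but wells of method A with unlike numbers gave 0.64 and 0.47. The numbers were therefore not taken as a pairing. Between acute ECs and GFP-negative cells the values were 0.09 and 0.09. These are 1 value, since deviations from a mean of 2 libraries mirror each other. Whether the sorted samples were paired cannot be told from it.

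Other log2 differences also changed sign, most of them small. In WT cultures against acute ECs these were Wwtr1 (0.02 with library size scaling, 0.65 with the length offset), Tead1 (-0.09 by DESeq2, -1.15 in method A), Tead2 (-0.03 by DESeq2, -0.24 with the length offset, -0.28 in method B), Tead3 (-0.10 with the length offset, -0.52 in method A), Amotl2 (-0.23 with the length offset), Lats1 (0.66 with the length offset, 0.07 in 36-cycle cultures) and Vgll4 (0.16 in method A). In stabilized cultures against acute ECs they were Yap1 (0.01 with library size scaling, 0.51 with the length offset), Tead1 (0.14 in method B) and, with the length offset, Wwtr1 (0.77), Tead2 (-0.17), Tead3 (-0.08) and Amotl2 (-0.31). Between the genotypes they were, with library size scaling, Wwtr1 (-0.05), Tead3 (0.00), Tead4 (-0.03) and Amotl2 (-0.05); with the length offset, Tead3 (0.03), Tead4 (-0.25) and Amotl2 (-0.06); with the method as a covariate, Tead4 (-0.22), Ccn2 (0.04) and Amotl2 (-0.33); in method A, Wwtr1 (-0.03), Tead1 (0.45), Tead2 (-0.18), Tead3 (0.98), Ccn2 (0.39) and Amotl2 (-0.51); in 36-cycle cultures of method B, Yap1 (-0.17), Tead4 (-0.50) and Amotl2 (-0.14). Tead3 was also at 0.01 without the low-count filter, 0.01 with all 14 libraries in one fit and 0.02 with wells summed. Ccn1 was at -0.03 between acute ECs and GFP-negative cells with library size scaling. With single libraries left out, the sign also changed in WT cultures against acute ECs for Tead1 (-0.90 to 0.41), Tead2 (-0.28 to 0.44) and Tead3 (-0.14 to 0.82), in stabilized cultures against acute ECs for Yap1 (-0.56 to 0.45), Tead1 (-0.50 to 0.23) and Tead3 (-0.09 to 0.88), between the genotypes for Wwtr1 (-0.05 to 0.07), Tead1 (-0.45 to 0.64), Tead3 (-0.23 to 0.38), Tead4 (-0.14 to 0.21) and Amotl2 (-0.16 to 0.19), and between acute ECs and GFP-negative cells for Ccn1 (-0.03 to 0.50). The cause was not tested.

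Library size scaling moved the median of all genes from 0.10 to 0.30 in WT cultures against acute ECs and from -0.06 to -0.44 in acute ECs against GFP-negative cells. Depth limits Tead3 most, at 6 to 66 counts in cultured libraries.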

Other observations

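Of the 18 other YAP or TAZ targets, 3 (Myof, Nuak2 and Dock5, named here after their values were seen) were called higher in stabilized cultures against acute ECs and not in WT cultures against acute ECs. Between stabilized and WT cultures none of the 3 passed the edgeR test. Myof, a ferlin involved in membrane repair, was at mean levels of 7.41 TPM in acute ECs, 38.8 in WT cultures and 85.7 in stabilized cultures. Its log2 difference from acute ECs on counts was 1.45 ± 0.73 (SE) in WT cultures, with an edgeR adjusted p of 0.135. In stabilized cultures it was 2.53 ± 0.24 (SE), with an adjusted p of 0.000399. Nuak2, a kinase of the AMPK family, was at 0.218, 12.9 and 14.7 TPM, with log2 differences of 4.36 (edgeR adjusted p of 0.00198, but without 5 TPM in every WT culture) and 4.90 (0.000294). Dock5, an exchange factor for Rac, was at 0.561, 4.15 and 7.11 TPM, with log2 differences of 2.29 (edgeR adjusted p of 0.107) and 2.86 (0.000549).

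Among the marker lists, the 7 immediate early genes, several of which encode AP-1 subunits, summed to 119 and 586 TPM in the acute EC libraries and 136 to 579 TPM in WT cultures. Of these 3 were called lower in WT cultures (Jun, Egr1 and Ier2) and 0 higher, on counts, where 10.2% of all genes tested were called lower and 13.5% higher. On TPM Ier2 was at 33.2 and 32.3 in acute ECs and at 16.9, 27.6, 98.7, 100.1, 17.0 and 20.1 in WT cultures 1 to 6, so that WT cultures 3 and 4 were above both acute libraries. So they were for Egr1, at 62.4 and 53.6 TPM against 16.3 and 49.2 in acute ECs, with the other WT cultures at 6.12 to 12.0. Jun was at 35.5 and 159 TPM in acute ECs and 27.6 to 91.5 in WT cultures, and the groups overlapped. Of the 6 endothelial markers 3 were called lower in WT cultures (Kdr, Tek and Cldn5) and 0 higher, beside the same 10.2% and 13.5% of all genes. Cldn5 overlapped on TPM, at 874 and 593 in acute ECs, 441 to 774 in WT cultures 1 to 4 and 92.1 and 118 in WT cultures 5 and 6. The study describes little change of Cldn5 in culture.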
